A study of Mus musculus with 36 samples.

Results

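The myogenic transcription factors are 8 mouse genes that were taken by name from the gene table: Myod1, Myog, Myf5 and Myf6 of the MyoD family, Mef2a, Mef2c and Mef2d of the MEF2 family, and the paired box gene Pax7. Each symbol matched 1 Ensembl gene, so that 8 of the 54347 genes of the table belonged to the group. RNA was sequenced from primary mouse adipocytes, macrophages, myocytes and hepatocytes of C57Bl/6 mice (hepatocytes of C57BL/6NHsd mice per the methods), each exposed for 6 h to PBS as control, to 5 mM βOHB as (R)-(–)-3-hydroxybutyric acid sodium salt, or to 5 mM butyrate as butyric acid sodium salt. There were 3 libraries in each of the 12 groups and 36 libraries in all. The myocytes were myotubes differentiated from myoblasts of mouse hindlimb muscle, the adipocytes came from the stromal vascular fraction of inguinal fat pooled from several mice, the macrophages from bone marrow, and the hepatocytes from perfused liver, and each cell type was treated in the medium of its own culture. The labels describe the butyrate cells as treated with butyric acid and carry the abbreviation bOHB beside it in one field, and the compound was taken from the treatment field. They do not say whether the libraries of a group came from separate mice or cultures, so the p-values measure the spread between these libraries, which may be technical.

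The libraries held between 18366289 and 23221473 estimated counts (median 22177562). The labelled cell types carried their own markers. The summed level of 10 myotube markers was 32161 to 39319 CPM (counts scaled to the size of the library) in the 3 control myocyte libraries and 7.46 to 37.9 CPM in the controls of the other cell types. Markers of other cell types were also counted in the myocyte libraries, and whether this RNA came from other cells was not tested. The 7 fibroblast markers summed to 1669 to 2046 CPM in controls, 1655 to 2172 CPM with βOHB and 1655 to 2466 CPM with butyrate. The 11 macrophage markers summed to 160.1 to 431 CPM in controls, 58.4 to 153 CPM with βOHB and 21.5 to 104 CPM with butyrate, and the 5 markers of proliferating cells to 35.8 to 77.6, 22.1 to 27.0 and 17.3 to 23.0 CPM. The 6 hepatocyte markers summed to 0.352 to 1.50 CPM in control myocytes, to 0.666 to 25.3 CPM with βOHB and to 33.2 to 595 CPM with butyrate.

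The factors of the MyoD family are basic helix-loop-helix proteins that pair with E proteins and bind E-boxes in muscle genes. Myf5 and Myod1 commit precursor cells to the muscle lineage, Myog drives their differentiation and fusion, and Myf6, also called MRF4, acts in differentiated fibres. The MEF2 proteins bind A/T-rich sites beside E-boxes and act together with the MyoD family, and class IIa histone deacetylases repress them, whereas Pax7 marks the satellite cells from which adult myoblasts arise. Butyrate, a product of gut bacteria, inhibits histone deacetylases, and βOHB is a ketone body that carries a hydroxyl group which butyrate lacks.

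The genes lie on chromosomes 1 (Myog), 3 (Mef2d), 4 (Pax7), 7 (Myod1 and Mef2a), 10 (Myf5 and Myf6) and 13 (Mef2c) of GRCm38. Myf5 and Myf6 are neighbours on the minus strand, with 6718 bases between them. RefSeq promoter entries of build GRCm38.p6 were at hand for 6 of the 8 genes, and 5 of them had bases before the start that lie outside annotated exons. Those of Myog, Myf5, Mef2c and Mef2d are shown because these genes differ in whether sites that the factors bind lie near their starts. Each shows the up to 250 bases before the RefSeq start that lie outside annotated exons, 5′ to 3′ on the strand of the gene. Capitals mark matches to the E-box CANNTG and to the MEF2-type word CTANNNNTA, read on both strands.
Myog, chr1:134289754-134289988, plus strand: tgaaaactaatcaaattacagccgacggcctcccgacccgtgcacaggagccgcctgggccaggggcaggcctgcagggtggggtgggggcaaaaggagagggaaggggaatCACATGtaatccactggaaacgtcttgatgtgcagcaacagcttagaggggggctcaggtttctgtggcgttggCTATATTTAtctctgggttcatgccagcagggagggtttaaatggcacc
Myf5, chr10:107486135-107486384, minus strand: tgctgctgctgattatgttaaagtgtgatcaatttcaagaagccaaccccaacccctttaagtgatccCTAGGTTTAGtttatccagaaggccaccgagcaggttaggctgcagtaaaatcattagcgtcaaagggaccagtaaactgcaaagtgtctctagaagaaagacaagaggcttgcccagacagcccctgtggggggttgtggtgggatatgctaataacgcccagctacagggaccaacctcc
Mef2c, chr13:83503784-83504033, plus strand: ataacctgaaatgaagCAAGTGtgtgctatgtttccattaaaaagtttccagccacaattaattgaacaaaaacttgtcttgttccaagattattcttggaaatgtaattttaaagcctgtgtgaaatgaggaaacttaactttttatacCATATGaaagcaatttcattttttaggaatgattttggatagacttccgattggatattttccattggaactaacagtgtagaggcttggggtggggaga
Mef2d, chr3:88142122-88142371, plus strand: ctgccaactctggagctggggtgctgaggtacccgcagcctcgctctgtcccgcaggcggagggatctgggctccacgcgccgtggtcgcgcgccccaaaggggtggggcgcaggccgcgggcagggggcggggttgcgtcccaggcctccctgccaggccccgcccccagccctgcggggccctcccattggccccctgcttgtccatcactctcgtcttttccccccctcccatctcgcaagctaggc
The Myog window held the E-box CACATG, which starts 138 bases before the RefSeq start, and the MEF2-type word CTATATTTA, 64 bases before it. In Myf5 the capitals cover overlapping MEF2-type matches on opposite strands, which start 182 and 181 bases before the start, and no E-box. The Mef2c window, which belongs to the most upstream of the 3 RefSeq starts listed for the gene, held the E-boxes CAAGTG and CATATG. The window of the most downstream Mef2c start, not printed here, held the E-box CAGATG and the MEF2-type word CTAACGATA, 245 and 191 bases before that start. The Mef2d window held neither word, and the Mef2a window, not printed here, held neither as well. Such matches are common: 66.2% of the 32851 promoter entries held an E-box in the 250 bases before the start and 19.0% held the MEF2-type word. A match is a description of the letters and does not show that a factor was bound.

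The first question was what butyrate and βOHB did to these factors in myocytes. Butyrate lowered all 8 of them, from 6.08-fold for Myod1 to 1.16-fold for Mef2a, and βOHB moved none past the threshold of an adjusted p below 0.05. A call here means an adjusted p below 0.05 in the quasi-likelihood test of edgeR, adjusted after Benjamini and Hochberg over all 15340 tested genes. Calls were frequent under butyrate: 66.5% of the tested genes were called in myocytes, with 33.4% of all tested genes lowered and 33.1% raised. Under βOHB 2.91% of the genes were called, 2.56% lowered and 0.346% raised. Fewer cells that express a gene and less of its RNA per cell cannot be told apart in these bulk libraries.

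Myod1, the factor that can turn fibroblasts into muscle cells, stood at 381, 432 and 408 CPM in the 3 control libraries, at 431, 459 and 409 CPM with βOHB and at 63.6, 69.6 and 67.7 CPM with butyrate. The butyrate libraries lay far below all others and close to each other, and the βOHB libraries overlapped the controls. The mean was 407 ± 25.4 CPM in controls and 67.0 ± 3.03 CPM with butyrate (SD, n = 3). The log2 fold change under butyrate was -2.60 ± 0.11 (SE), 6.08-fold lower, with an adjusted p of 2.2e-18 in the edgeR test.

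Myog, the factor of terminal differentiation, stood at 918, 982 and 1006 CPM in controls, 1039.6, 1071 and 1037 CPM with βOHB and 329.8, 338 and 255 CPM with butyrate. All 3 βOHB libraries lay above all 3 controls, as was the case for 14.6% of the tested genes, and all butyrate libraries lay below. Myog was 3.15-fold lower under butyrate, with a log2 fold change of -1.65 ± 0.16 (SE, adjusted p = 2.0e-10 by edgeR). Because Myod1 fell further, the ratio of Myog to Myod1 CPM within a library was 3.77 to 5.18 with butyrate, against 2.27 to 2.47 in controls and 2.34 to 2.54 with βOHB. The ranges of the control and βOHB libraries overlapped, and those of the butyrate libraries lay above both.

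The genomic neighbours Myf5 and Myf6 had similar CPM in controls, 30.4 and 31.0 on average. Per kb of the longest transcript these means were 14.6 and 24.6 CPM. Myf5, which acts early in the lineage, stood at 31.9, 26.9 and 32.2 CPM in controls, 30.1, 25.5 and 26.2 CPM with βOHB and 10.8, 8.74 and 7.56 CPM with butyrate. Myf6, the late factor, stood at 29.3, 31.7 and 32.1 CPM in controls, 41.8, 35.5 and 33.2 CPM with βOHB and 16.3, 13.1 and 13.1 CPM with butyrate. For both genes the butyrate libraries lay below every other library, and for Myf6 the βOHB libraries lay above the controls. Under butyrate Myf5 was 3.35-fold lower (log2 fold change -1.75 ± 0.17, SE) and Myf6 2.19-fold lower (-1.13 ± 0.13), with adjusted p-values of 3.7e-08 and 4.9e-07 by edgeR.

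The 3 MEF2 genes fell by unequal amounts. Mef2c, the muscle-enriched member of the family and the most abundant of the 8 in CPM, stood at 2007, 2263 and 2492 CPM in controls, 2614, 2277 and 2448 CPM with βOHB and 1263, 1122 and 928 CPM with butyrate. Mef2d, a widely expressed member, stood at 309.7, 328 and 353 CPM in controls, 351, 319 and 353 CPM with βOHB and 151, 145 and 132 CPM with butyrate. Mef2a, also widely expressed, stood at 446, 431 and 484 CPM in controls, 489.9, 469.8 and 501 CPM with βOHB and 428, 402 and 343 CPM with butyrate. The butyrate libraries of Mef2c and Mef2d were well apart from the controls, whereas the highest butyrate library of Mef2a lay just under the lowest control.

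Under butyrate Mef2c was 2.04-fold lower (log2 fold change -1.03 ± 0.11, SE) and Mef2d 2.32-fold lower (-1.21 ± 0.06), with adjusted p-values of 1.7e-09 and 4.0e-16 by edgeR. Mef2a was 1.16-fold lower (-0.21 ± 0.08, 95% CI -0.37 to -0.06) with an adjusted p of 0.014 by edgeR. The Mef2a call rested on single libraries and on the scaling. Without butyrate replicate 3 its log2 fold change was -0.12 (adjusted p = 0.15, edgeR), without control replicate 3 it was -0.16 (adjusted p = 0.084), in a fit of the 9 myocyte libraries alone -0.18 (adjusted p = 0.079), and with library totals in place of TMM factors -0.08 (adjusted p = 0.36). Over all genes, library totals alone moved the median change by 0.13 on the log2 scale. Mef2a overlaps Lysmd4 on the opposite strand and Mef2d overlaps a weakly counted antisense gene (at most 18 counts in a library), and whether the reads were counted by strand is not given in the sources used here.

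Pax7, the satellite cell factor, was the least abundant of the 8, with 17.6, 12.4 and 15.5 CPM in controls, 14.7, 12.4 and 12.4 CPM with βOHB and 3.91, 3.68 and 2.24 CPM with butyrate. The butyrate libraries again lay below all others. Pax7 was 4.60-fold lower under butyrate, with a log2 fold change of -2.20 ± 0.20 (SE, adjusted p = 1.9e-07 by edgeR). The markers of proliferating cells were lower with both compounds, 4 of 5 called under butyrate and 3 of 5 under βOHB by edgeR (0 of 5 under βOHB in the fit of the 9 myocyte libraries alone, with 5 at an unadjusted p below 0.05), while Pax7 and Myf5 passed the test under butyrate and not under βOHB. Their part in the results for Pax7 and Myf5 was not tested.

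**Figure D1:**
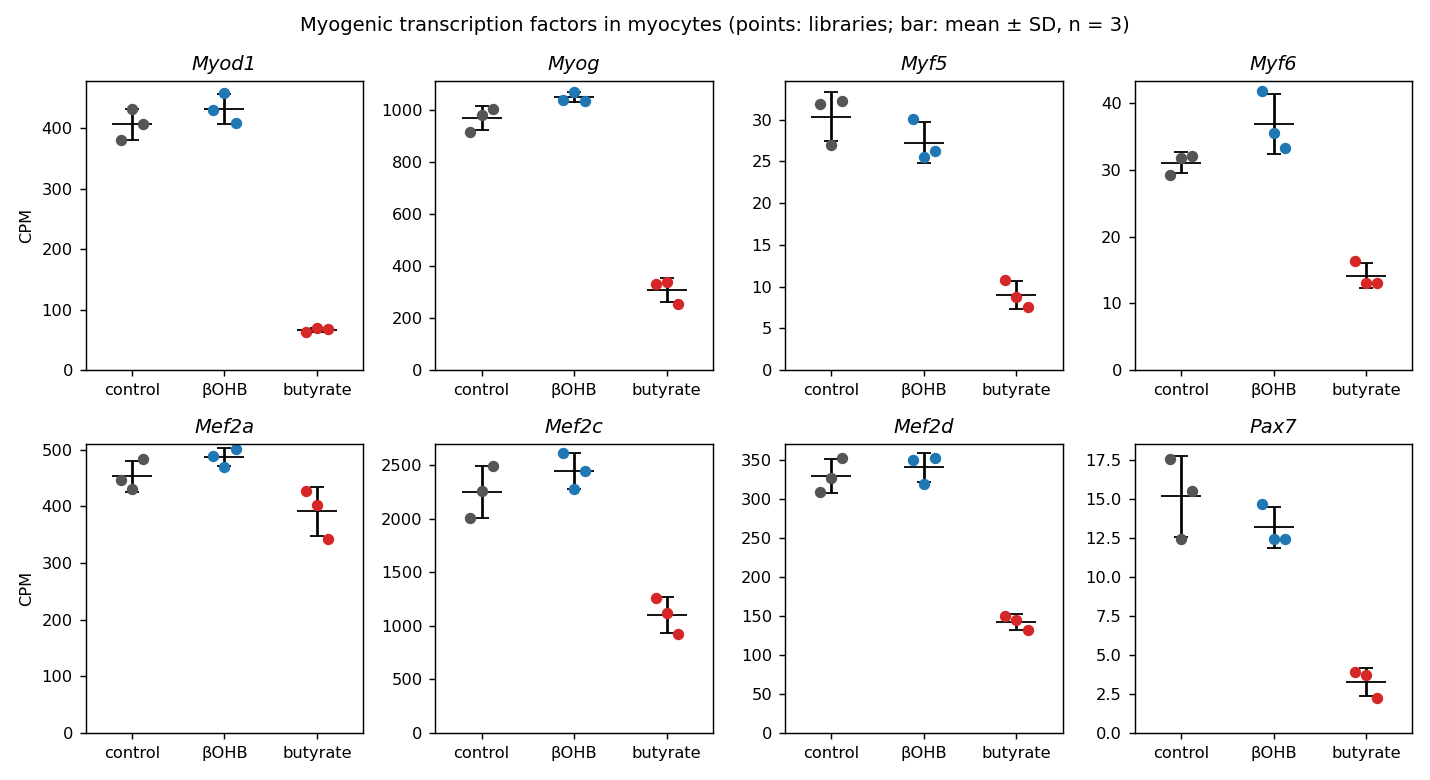
CPM of the 8 myogenic transcription factors in myocytes (vertical axes from 0; horizontal positions: control, βOHB and butyrate; points: libraries; bars: mean ± SD, n = 3). In every panel the 3 butyrate libraries lie below the 3 controls, as for 32.5% of the tested genes, by the least for Mef2a, with 343 to 428 CPM against 431 to 484 CPM.

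No factor was called under βOHB in myocytes by edgeR, limma-voom or DESeq2, and 0 of 8 had an unadjusted p below 0.05 in edgeR, where 2104 of the 15340 tested genes had one. The log2 fold changes ran from -0.20 for Pax7 to 0.25 for Myf6. Myf6 had the smallest p of the 8, 0.068 before adjustment and 0.41 after it by edgeR, and its 95% confidence interval was -0.02 to 0.51. By limma-voom, the kind of test used in the study, 2 of the 8 had an unadjusted p below 0.05, beside 2245 of the 15340 tested genes. The 2 factors were Myf6, with a log2 fold change of 0.24 and an adjusted p of 0.081, and Pax7, with -0.19 and an adjusted p of 0.33. The intervals bound what these libraries could have missed: for Myod1 the interval was -0.12 to 0.29, for Myog -0.20 to 0.43, for Mef2c -0.10 to 0.34 and for Mef2d -0.08 to 0.17. For Myf5 it was -0.49 to 0.18 and for Pax7, which had the fewest counts, -0.59 to 0.19. Mef2a was at 0.10 with an interval of -0.05 to 0.26.

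At the same dose and time the compounds differed for all 8 factors. Butyrate minus βOHB gave lower levels for 8 of 8, beside 66.0% of all tested genes called and 32.9% called lower, from a log2 difference of -2.69 ± 0.11 (SE) for Myod1 to -0.32 ± 0.08 for Mef2a. The edgeR adjusted p-values were 1.1e-18 for Myod1 and 0.00051 for Mef2a. The comparisons of each compound with the controls share their control libraries, while this one does not use them. With library totals alone the difference of Mef2a was -0.12 (adjusted p = 0.16, edgeR).

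**Figure D2:**
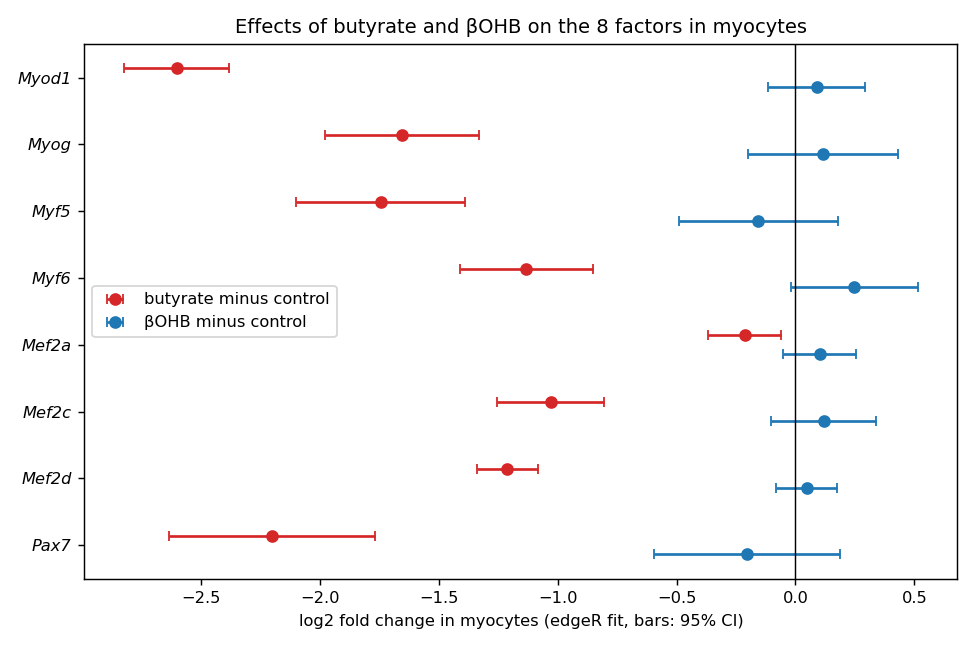
Log2 fold change against control in myocytes (horizontal axis, edgeR fit) of each of the 8 factors (vertical axis) for butyrate (red) and βOHB (blue), with 95% confidence intervals as bars. The butyrate intervals lie below 0 for every factor, from -2.60 for Myod1 to -0.21 for Mef2a, and every βOHB interval includes 0.

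The partners, upstream factors and inhibitors of these proteins were described from a list of 50 other regulators, of which 48 were tested. Under butyrate 36 of the 48 were called in myocytes, 26 lowered and 10 raised, and the median log2 fold change over the 48 was -0.26, against 0 for all genes. Their share of calls, 75.0%, was near the 66.5% of all genes. Follistatin (Fst), a secreted antagonist of myostatin and activins, fell by 4.27 on the log2 scale, from 463 ± 52.3 to 24.0 ± 5.58 CPM (SD, n = 3). The TEAD cofactor Vgll3 fell by 1.46, the zinc-finger factor Klf5 by 1.30 and the E protein gene Tcf12, a partner of the MyoD family, by 0.71, with adjusted p-values of 1.2e-20, 7.2e-17, 4.3e-13 and 1.1e-12 for Fst, Vgll3, Klf5 and Tcf12 by edgeR. All 4 were near their control levels with βOHB, where the log2 fold changes were -0.13, 0.02, 0.07 and 0.06.

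The 4 raised regulators of smallest p were Hey1, Mdfi, Id4 and Eya2. Hey1, a repressor downstream of Notch, rose from 2.45 ± 0.83 to 10.1 ± 1.63 CPM (log2 fold change 2.05), Mdfi, which binds and blocks MyoD family proteins, from 1.73 ± 0.20 to 4.21 ± 0.58 CPM (1.28), and Id4, an inhibitor of helix-loop-helix proteins, from 4.22 ± 0.27 to 6.64 ± 1.37 CPM (0.65). Eya2, a cofactor of homeobox proteins, rose from 0.955 ± 0.370 to 3.36 ± 0.547 CPM (1.81). Under βOHB their log2 fold changes were -0.37, -0.14, -0.02 and 0.45 for Hey1, Mdfi, Id4 and Eya2, none of them called by edgeR.

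Genes that the MyoD and MEF2 families are known to activate were mostly lower under butyrate. Of 44 muscle target genes, all tested, 31 were called under butyrate in myocytes, 30 lowered and 1 raised, with a median log2 fold change of -0.49, against -1.43 for the 8 factors. Their share of calls, 70.5%, was near the 66.5% of all tested genes, of which 33.4% were lowered. The number called ran from 19 by DESeq2 to 41 by edgeR with no filter on low counts. The 4 lowered genes of smallest p were Stac3, an adaptor of excitation-contraction coupling (-1.76), the kinase Musk of the neuromuscular junction (-1.50), the thin filament gene Lmod3 (-1.37) and M-cadherin (Cdh15, -1.13), with adjusted p-values of 4.4e-15, 6.0e-13, 2.3e-11 and 9.4e-11 by edgeR. Stac3 went from 68.5 ± 3.94 to 20.2 ± 2.08 CPM and Musk from 138 ± 10.3 to 48.7 ± 7.62 CPM (SD, n = 3). The raised gene was Xirp1, which codes for an actin-binding repeat protein, from 569.6 ± 57.8 to 781 ± 234 CPM (0.45, adjusted p = 0.0096, edgeR).

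Of the 10 myotube markers, abundant structural and metabolic genes of the fibre, 3 were called lower by edgeR, a share of 30.0% beside the 33.4% of all tested genes called lower. These were the actin genes Actc1 (log2 fold change -0.76) and Acta1 (-0.49) and the creatine kinase gene Ckm (-0.42). The 7 that were not called ran from -0.65 for the embryonic myosin gene Myh3 (adjusted p = 0.073) to 0.34 for the perinatal myosin gene Myh8 (adjusted p = 0.13). The summed level of the 10 myotube markers was 22969 to 30457 CPM with butyrate, below the 32161 to 39319 CPM of the controls. Under βOHB 0 of the 44 target genes and 0 of the 48 regulators were called by edgeR, beside 2.91% of all tested genes. By the same test 2 targets and 4 regulators had an unadjusted p below 0.05, beside 2104 of all 15340 tested genes. By limma-voom 1 of the targets (Mymx) was called. DESeq2, library totals alone, no filter and the fit without control replicate 3 each called 1 of the regulators (Id2).

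Genes of satellite cells other than Pax7 moved in both directions. Of 20 listed genes 19 were tested, and under butyrate 8 were lowered and 2 raised. Their share of calls was 52.6%, beside 66.5% of all tested genes, and this difference was not tested. The lowered genes of smallest p were Megf10 (log2 fold change -1.43), Cdh15, which is also among the muscle targets, the chemokine receptor Cxcr4 (-1.59) and the signalling inhibitor Spry1 (-0.77). The raised ones were syndecan 4 (Sdc4, 1.08) and the receptor Notch3 (0.36). None of the 19 was called under βOHB by edgeR, beside 2.91% of all tested genes. Of the 19, 2 had an unadjusted p below 0.05, beside 2104 of all 15340 tested genes. The call of Cxcr4 depended on the setting. It was at -0.42 with an adjusted p of 0.085 by edgeR, and with the replicate block at -0.42 with an adjusted p of 0.035. It was also called with library totals alone (-0.49, adjusted p = 0.045), with no filter (-0.46, adjusted p = 0.0014), without control replicate 3 (-0.54, adjusted p = 0.019) and by DESeq2 (-0.45, adjusted p = 0.0078), and with no filter Cav1 was called too (-0.32, adjusted p = 0.020). Cxcr4 is also a gene of macrophages, whose markers were lower with βOHB (11 of 11 called lower by edgeR, and 0 of 11 in the fit of the 9 myocyte libraries alone, where all 11 had an unadjusted p below 0.05), and the part of macrophage RNA in its value was not tested.

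**Figure D3:**
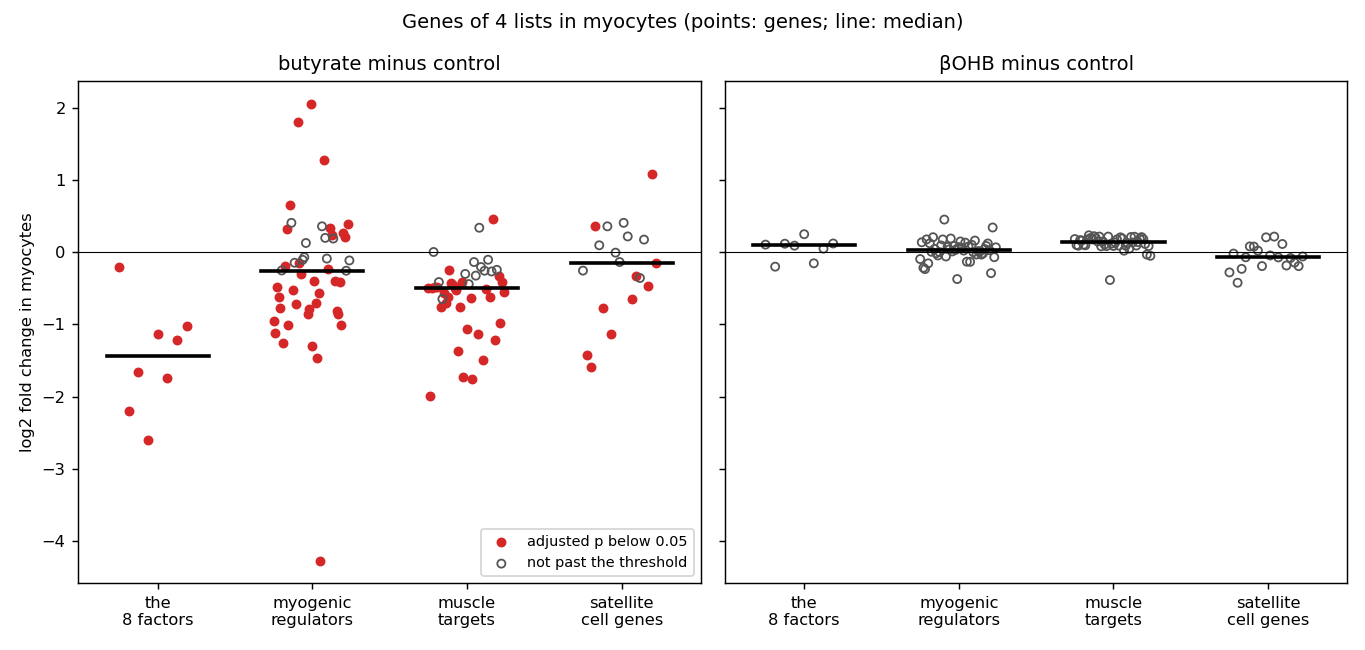
Log2 fold change against control in myocytes (vertical axis) of each gene in 4 lists (horizontal axis; points: genes; thick line: median), for butyrate on the left and βOHB on the right, with filled red points for genes with an adjusted p below 0.05. Under butyrate the median is -1.43 for the 8 factors, -0.26 for the other regulators, -0.49 for the muscle targets and -0.15 for the satellite cell genes, and under βOHB no point is filled.

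Across the untreated cell types all 8 factors were highest in myocytes. In comparisons of myocytes with the others, cell type, culture medium and, for hepatocytes, mouse strain cannot be told apart. The paper also states that some of the primary cells came from Munich and does not name them. Myod1, Myog, Myf5, Myf6 and Pax7 passed the filter on low counts through the myocytes, so that their direction was fixed by it. The 3 MEF2 genes, which were counted in every cell type, were called higher in control myocytes than in control adipocytes, macrophages and hepatocytes, 3 of 3 in each comparison, beside 78.2%, 82.2% and 86.6% of all tested genes called and 39.1%, 42.8% and 44.9% called higher in myocytes. Within myocytes, CPM can be compared between genes only after division by length. Per kb of the longest annotated transcript, the control means were 648 CPM for Myog, 359 for Mef2c, 219 for Myod1, 81.9 for Mef2a, 61.1 for Mef2d, 24.6 for Myf6, 14.6 for Myf5 and 2.59 for Pax7. Per kb of all exons together, which for Mef2a and Mef2c are far longer than any 1 transcript, the values were 143 for Mef2c and 30.9 for Mef2a, so that Mef2c fell below Myod1 and Mef2a below Mef2d (55.2). The places of Mef2c and Mef2a in the order thus depend on the length used.

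Myf5 and Pax7 had 0 counts in all 9 control libraries of the other cell types. With 3 counts over each group as the floor, control myocytes were at least 709-fold higher than adipocytes, 674-fold higher than macrophages and 497-fold higher than hepatocytes for Myf5, and at least 354-fold, 336-fold and 248-fold higher for Pax7. Myf6 had 1 count in 1 macrophage control and 0 elsewhere. Myod1 had 2 to 6 counts and Myog 10 to 16 counts per cell type over the 3 control libraries, against 27393 and 65197 in myocytes. Outside myocytes 0 libraries were above 1 CPM for Myod1, Myf5, Myf6 and Pax7, and 1 was for Myog. The intervals and floors cover counting error only.

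The MEF2 genes were present in other cells and differed in their pattern. Mef2a had 454 ± 27.1 CPM in control myocytes, 306 ± 9.43 in macrophages, 107 ± 3.71 in adipocytes and 98.2 ± 8.68 in hepatocytes (SD, n = 3). The libraries of adipocytes (104 to 111 CPM) and hepatocytes (89.9 to 107 CPM) overlapped, and the other neighbours in the order did not. Mef2d had 330.2 ± 21.9 CPM in myocytes, 138 ± 1.45 in macrophages, 106 ± 7.07 in hepatocytes and 91.4 ± 8.20 in adipocytes, with no overlap between neighbours, though the last pair lay close (101 to 114 against 83.6 to 99.9 CPM). Mef2c was the most uneven, with 2254 ± 243 CPM in myocytes, 78.5 ± 1.77 in macrophages, 12.1 ± 1.36 in adipocytes and 1.97 ± 0.40 in hepatocytes, which is 28.7-fold, 186-fold and 1139-fold more in myocytes in the edgeR fit.

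Macrophages carry Mef2a, Mef2c and Mef2d themselves, and the macrophage markers in control myocytes stood at 1.60% of their level in control macrophages. All 3 genes were lower in control macrophages than in control myocytes. The hepatocyte markers summed to 33.2, 595 and 132 CPM in the 3 butyrate-treated myocyte libraries, with replicate 2 far above the others, against 38171 CPM on average in control hepatocytes, where all 8 factors were lower than in myocytes. Without butyrate replicate 2 each of the 8 factors was still called lower under butyrate in myocytes, Mef2a at -0.23 (adjusted p = 0.019, edgeR). The part that RNA of macrophages, hepatocytes, fibroblasts or other cells had in the values of the factors in myocytes was not tested.

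**Figure D4:**
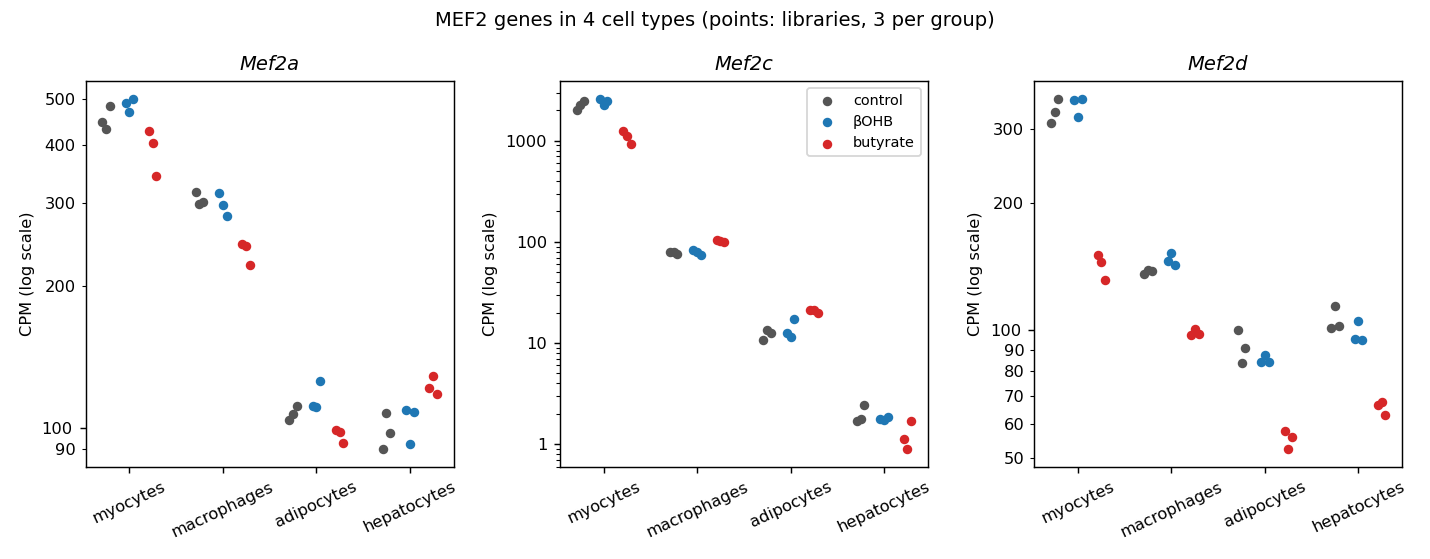
CPM (log scale, vertical axes) of Mef2a, Mef2c and Mef2d in 4 cell types (horizontal axis; grey: control, blue: βOHB, red: butyrate; points: libraries, 3 per group). The butyrate points of Mef2d lie below the controls in all 4 cell types, and those of Mef2c lie below in myocytes and hepatocytes and above in macrophages and adipocytes.

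Outside myocytes butyrate changed the MEF2 genes in different directions. Mef2d was lowered in all 4 cell types. In adipocytes it stood at 99.9, 83.6 and 90.7 CPM in controls and at 57.9, 52.3 and 56.0 CPM with butyrate, a log2 fold change of -0.72 ± 0.07 (SE). In macrophages it stood at 136, 139 and 138 CPM against 97.4, 101 and 98.0 CPM (-0.48 ± 0.06), and in hepatocytes at 101, 114 and 103 CPM against 66.6, 67.5 and 63.0 CPM (-0.69 ± 0.07). No butyrate library overlapped a control in any of the 3, which was the common case under butyrate, with 67.3%, 72.2% and 68.5% of all tested genes in adipocytes, macrophages and hepatocytes. The adjusted p-values were 6.9e-11, 1.1e-07 and 1.6e-10 by edgeR, and the direction and the call held in every alternative run. With library totals alone the macrophage value was -0.26.

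Mef2c, lowered in myocytes, was raised in adipocytes and macrophages. It stood at 10.7, 13.3 and 12.5 CPM in control adipocytes and at 21.2, 21.2 and 19.9 CPM with butyrate, a log2 fold change of 0.77 ± 0.13 (SE, adjusted p = 4.1e-06 by edgeR). In macrophages it stood at 80.2, 78.6 and 76.7 CPM against 103, 103 and 99.9 CPM (0.38 ± 0.11, adjusted p = 0.0040). The groups did not overlap in either cell type, as for 67.3% and 72.2% of all tested genes. With library totals alone the macrophage value was 0.60. In adipocytes 3 of the 11 macrophage markers were called lower under butyrate (Csf1r, Fcgr3 and Cd14), and these 3 were also called lower in the macrophages themselves. The sum of the 11 in adipocytes was 411 to 482 CPM in controls and 364 to 397 CPM with butyrate. Of the 5 endothelial markers 3 were called lower in adipocytes, beside 61.0% of all tested genes called in either direction. Their sum was 188 to 215 CPM in controls and 122 to 143 CPM with butyrate. The part of macrophage or endothelial RNA in the Mef2c value was not tested.

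In hepatocytes Mef2c was scarce, at 1.69, 1.78 and 2.42 CPM in controls and 1.11, 0.892 and 1.68 CPM with butyrate, where the highest butyrate library lay just under the lowest control. The log2 fold change was -0.71 ± 0.26 (SE, adjusted p = 0.019 by edgeR). It was not called by limma-voom (-0.73, adjusted p = 0.15), nor by edgeR without control replicate 3 (-0.52), butyrate replicate 1 (-0.65) or butyrate replicate 2 (-0.51), with adjusted p-values of up to 0.12. Of the 11 macrophage markers 1 was called lower in the butyrate hepatocytes, Cd14, from 214 to 36.8 CPM on average. Of the 10 not called, Cd68 had a log2 fold change of 0.12 and the other 9 ran from -0.28 for Ptprc to -1.42 for C1qc. The median over the 11 was -0.77, and their sum was 301 to 348 CPM in controls and 139.7 to 158 CPM with butyrate. Of the 5 endothelial markers 5 were called lower by edgeR, beside 63.5% of all tested genes called in either direction. Their median was -2.05, and their sum was 66.4 to 74.2 CPM in controls and 20.2 to 23.6 CPM with butyrate. The part of macrophage or endothelial RNA in the Mef2c value was not tested.

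Mef2a was lowered in macrophages, from 317, 299 and 302 CPM in controls to 245, 243 and 222 CPM, and raised in hepatocytes, from 89.9, 107 and 97.3 CPM to 121, 129 and 118 CPM. The groups did not overlap in either, as for 72.2% and 68.5% of all tested genes. The log2 fold changes were -0.37 ± 0.08 in macrophages and 0.32 ± 0.08 in hepatocytes (SE), with adjusted p-values of 8.5e-05 and 0.00059 by edgeR. With library totals alone, which moved the median of all genes by 0.20 in macrophages, the macrophage value was -0.15 (adjusted p = 0.090). In adipocytes Mef2a had 98.9, 98.0 and 92.7 CPM with butyrate against 104, 107 and 111 CPM in controls (-0.15 ± 0.08, adjusted p = 0.092 by edgeR), and a fit of the 9 adipocyte libraries alone called it (-0.15, adjusted p = 0.043).

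In all, butyrate called 2 of the 8 factors in adipocytes, 5 in macrophages and 3 in hepatocytes, beside 61.0%, 65.0% and 63.5% of all tested genes. The 5 of macrophages included Myog and Myod1, which were called as raised from traces. Myog had 0, 8 and 2 counts in the control macrophages and 6, 15 and 58 with butyrate (0.261, 0.585 and 2.45 CPM), and Myod1 had 0, 2 and 0 counts against 0, 10 and 18. Both groups overlapped for both genes. The library with the most, butyrate replicate 3, also had 83.1 CPM of summed myotube markers, against 25.3 and 30.4 CPM in the other butyrate macrophages and 7.46 to 16.9 CPM in the controls. Each of the 10 myotube markers stood there at 0.175% to 0.317% of its control myocyte level, and Myog at 0.253%. Without this library the log2 fold change of Myog was 1.51 (adjusted p = 0.061 by edgeR) in place of 2.81, and that of Myod1 2.58 (adjusted p = 0.027) in place of 3.45. Without control replicate 2, which held most of the control counts, the values were 4.50 for Myog and 6.08 for Myod1. The part of muscle RNA in these values was not tested further.

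The butyrate effect differed between the 4 cell types for 5 of the 8 factors in an F test of the interaction (edgeR, adjusted p-values of 3.4e-06 for Myod1, 2.0e-05 for Myog, 1.4e-05 for Mef2a, 2.8e-10 for Mef2c and 2.6e-07 for Mef2d), beside 74.5% of all tested genes. Cell type, culture medium and, for hepatocytes, mouse strain cannot be told apart in this test either. For Myod1 and Myog the other cell types contribute traces only. For Myf5, Myf6 and Pax7 the test had almost no counts outside myocytes, and the adjusted p-values were 0.11, 0.75 and 0.21. Under βOHB 0 of the 8 factors were called in adipocytes, macrophages or hepatocytes, where 0.00652%, 0% and 0.00652% of all genes were, and 0 of 8 had an unadjusted p below 0.05 in any of the 3 by edgeR, limma-voom and DESeq2 also calling 0. The βOHB effect differed between cell types for 0 of 8 by edgeR, beside 0.978% of all tested genes, with 0 of 8 at an unadjusted p below 0.05 (the smallest, for Mef2d, was 0.071) and 0 of 8 called by limma-voom.

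The genes whose pattern over the 12 group means of log2 CPM was most like that of each factor were found by Pearson's r, over groups that share a cell type 3 at a time. The nearest gene was Tcap, which codes for telethonin of the sarcomere, for Myod1 (r = 0.998) and Mybph, a myosin-binding protein gene, for Myog (0.999). It was the fusion gene Mymx for Myf5 (0.999), the predicted gene Gm14635 for Myf6 (1.000), Il12a for Pax7 (1.000), Ak8 for Mef2a (0.986), Sytl2 for Mef2c (0.994) and the kinase gene Dyrk1a for Mef2d (0.984). The genes of the MyoD family and Pax7 were at or near 0 in 9 of the 12 groups, so that r measured little more than the myocyte level in these. Of the 24 neighbours, 3 per factor, 15 were shared when the prior count was 0.5 in place of 2, 13 over the 36 libraries and 2 with Spearman's measure.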

How the data were processed

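The deposited values are estimated counts per gene, made by the authors from paired-end reads with Salmon 1.2.1 on GENCODE M25 transcripts of GRCm38.p6, and summed with tximport. The methods describe a scaling by transcript length and depth, yet 60.0% of the values above 0 were whole to within 0.001, as in unscaled sums, and library totals differed. Groups and replicate numbers came from the labels of all 36 libraries. GENCODE M21, in which 54094 of 54347 genes were found, gave symbols and positions.

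Counts were rounded and fitted over 12 group means in edgeR 4.0.16 (R 4.3.3) with TMM factors, and genes whose CPM exceeded 1 in 6 or more libraries (15340) entered the quasi-likelihood F test and the Benjamini-Hochberg adjustment. All 8 factors passed this filter. CPM used TMM-scaled library sizes, and log2 CPM a prior count of 2. Since 3 libraries against 3 cannot give p below 0.1 in an exact permutation of 1 gene, genes were tested in the model across genes. Alternatives were limma-voom (limma 3.58.1), DESeq2 1.42.0, RLE scaling, library totals, 2 other filters, the 9 libraries of a cell type, a replicate block and each library left out. The test was checked on simulated data with 200 changed genes for butyrate in myocytes. There edgeR recovered 92.9% of the 2-fold and 75% of the 1.5-fold changes and called 7 unchanged genes. Smaller changes were not simulated. Named genes were all 8 factors, the 4 called genes of smallest p in each direction per list, and 3 pattern neighbours per factor. The factors, lists and tests were chosen with earlier results of these data known. At these depths 3 counts over a group of 3 libraries correspond to 0.0429 to 0.0611 CPM in the control groups. Groups of 3 were too small for a test of outliers. Replicate 3 of the butyrate myocytes differed most from its group. The chi-square per degree of freedom, over genes with 20 or more counts in a pair, was 36.9 against replicate 1 and 41.7 against replicate 2. These were the largest values of any pair of replicates, and between replicates 1 and 2 it was 8.57.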

Additional observations from a re-analysis of the deposited data

Results flagged for a closer look

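A difference of the butyrate effect between the 4 cell types brought 5 factors here, each by edgeR's F test of the interaction with Benjamini-Hochberg adjustment. The same test called 74.5% of all tested genes. For Mef2c the adjusted p was 2.8e-10, with log2 fold changes of -1.03 in myocytes, 0.77 in adipocytes, 0.38 in macrophages and -0.71 in hepatocytes. For Mef2d it was 2.6e-07, with -1.21, -0.72, -0.48 and -0.69 in the same order, lowered in each. For Mef2a it was 1.4e-05, with -0.21, -0.15, -0.37 and 0.32, where the adipocyte value was not called. For Myod1 it was 3.4e-06 and for Myog 2.0e-05. Their values outside myocytes rested on 0 to 18 counts of Myod1 and 0 to 58 counts of Myog in a library.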

How the results depend on the processing

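Of 1263 values under the alternatives, 1226 stayed on the same side of the threshold or close to the value reported, 22 moved, 11 were no longer past the threshold and 4 newly passed it. No called change turned its sign, and 1 uncalled one did: Mef2d under βOHB in myocytes was -0.01 with library totals alone in place of 0.05. In a fit of the 9 macrophage libraries alone 3 factors were called under butyrate (1 raised, 2 lowered) in place of 5, since Myod1 and Myog then fell under the filter. Among the 48 other regulators 1 was called lower under βOHB in myocytes, Id2, by DESeq2, with library totals alone and with no filter (0 by edgeR with TMM), and 0 to 1 when each library was left out, the 1 being without control replicate 3. Mymx was called among the 44 muscle targets under βOHB by limma-voom (1 in place of 0), and DESeq2 called 19 targets under butyrate in place of 31, the cause of which was not tested. With library totals alone the calls of all genes under butyrate in myocytes were 6271 raised and 3873 lowered in place of 5083 and 5117, and in macrophages 6685 and 3339 in place of 4886 and 5086. The number of genes called under βOHB in myocytes was 446, and 895 with no filter and 0 of 13979 by edgeR in the 9 myocyte libraries alone (1262 at an unadjusted p below 0.05), against 353 by limma-voom and 619 by DESeq2 in all libraries. It ran from 175 to 589 when each library was left out, and moved by over 1.5 times without control replicate 1 (175), control replicate 2 (288), βOHB replicate 1 (255) or βOHB replicate 2 (213). For Myf5 and Pax7 the interaction test passed with limma-voom (adjusted p = 0.026 and 0.0014), and for Myf5 with no filter (0.029). In control cells other than myocytes, log2 CPM of the MyoD family and Pax7 moved with the prior count.

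The replicate numbers were not taken to pair the libraries, since the correlation of deviations between same-numbered treated and control libraries was over 0.1 for 1 of 6 in myocytes (-0.22 to 0.11), 2 of 6 in adipocytes (-0.11 to 0.22) and 0 of 6 in macrophages and in hepatocytes. In adipocytes a control library correlated best with the treated library of its own number in 5 of 6 comparisons, against 1 of 6 in each other cell type. With the replicate block 8 factors were called under butyrate and 0 under βOHB in myocytes, and 10188 genes in place of 10200 under butyrate. The block changed no call of a factor, and under it Cxcr4 was called under βOHB in myocytes (adjusted p = 0.035 in place of 0.085, edgeR).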
